A study of Homo sapiens with 4 samples.

Results

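The comparison described here sets the U266 myeloma line against the K562 leukaemia line before any drug was given. Its members were defined by their labels, with earlier results of these data known. They are the U266 array with vehicle (DMSO) for 2 h and the K562 array with vehicle (DMSO) for 5 h. These are 2 of the 4 arrays in the series. The other arrays came from U266 with 15 µM atovaquone for 2 h and K562 with 20 µM atovaquone for 5 h, and they served here as a second look at each line. All cells grew in RPMI-1640 with serum, and each group was 1 array from 1 culture as far as the labels say. U266 is an established line from a human multiple myeloma, a cancer of antibody-secreting plasma cells. K562 is an established line from a human chronic myeloid leukaemia and carries the BCR-ABL1 fusion kinase.

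A plasma cell is the end stage of the B lineage. PRDM1, IRF4 and XBP1 shut down the mature B cell programme and enlarge the endoplasmic reticulum, in which immunoglobulin chains are folded and joined before export. An erythroid precursor is instead governed by GATA1, TAL1, LMO2 and KLF1, which switch on globin, haem and red cell membrane genes. K562 is a common model of early erythroid cells that make embryonic and fetal globins, and BCR-ABL1 is known to signal through STAT5, RAS and CRKL. U266 is known to make IL-6 and to respond to it through IL6R, IL6ST and STAT3.

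Values are the array intensities that the authors deposited per probe set, without a log. The floor of an array was its 40th percentile over annotated probe sets, 331 in U266 and 305 in K562, and an intensity below it was raised to it. A log2 difference is U266 vehicle minus K562 vehicle, centred on the median probe set above both floors, and where only 1 array reached its floor the value is a bound, written "at least". With 1 array per group no difference could be tested, so genes are described by a fixed size of 2-fold. The gene lists were drawn up with earlier results of these data known, so their counts and medians describe the lines and test nothing. Intensities of different genes are not comparable, since each probe set binds with its own strength. The line, its culture and its time in vehicle (2 h against 5 h) cannot be told apart.

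The labels of both arrays were matched by their marker genes. JCHAIN, which joins immunoglobulin chains into polymers, had an intensity of 10691 in U266 and 49.3 in K562, and TNFRSF17, which encodes the plasma cell receptor BCMA, had 4159.7 in U266 and 48.1 in K562. SDC1, the plasma cell surface proteoglycan CD138, had 3776 in U266 and 471 in K562, and PRDM1 had 3012 in U266 and 193 in K562. All 4 plasma cell markers were bright in U266, and JCHAIN, TNFRSF17 and PRDM1 were under the floor in K562. The erythroid markers lay the other way. GATA1 had an intensity of 285 in U266 and 3054 in K562, the embryonic globin gene HBZ had 369.9 in U266 and 6725 in K562, and RHAG, a core protein of the Rh complex, had 158 in U266 and 3819.6 in K562. GATA1 and RHAG were under the floor in U266, and HBZ was a little above it. The atovaquone arrays gave similar intensities, with JCHAIN at 11063 in U266 and 43.5 in K562 and HBZ at 338 and 6978.

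Over the whole array, 12574 of 18417 genes reached the floor on at least 1 vehicle array. Of these, 1378 (11%) passed 2-fold toward U266 and 1142 (9.08%) toward K562, bounds included. Each list count below is to be read against these shares of 11% and 9.08%. Among the 9483 genes measured on both arrays the shares were 7.78% (738 genes) and 7.19% (682 genes). Differences of at least 8-fold were held by 89 genes in U266 and 45 in K562. Of the genes counted as higher, 88.2% in U266 and 84.9% in K562 gave the same count between the atovaquone arrays, and 2 genes lay at least 2-fold the other way. A gene's median absolute log2 difference between the lines was 0.39. It was 0.081 between the arrays of U266 and 0.12 between those of K562. Of 276 genes with a pair of measured probe sets, 25 had the same values in both. The probe sets of the other 251 genes differed in this log2 difference by a median of 0.19, and by over 1 in 20 genes. In RNA from whole cultures, fewer cells of a type and less RNA per cell cannot be told apart.

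**Figure D1:**
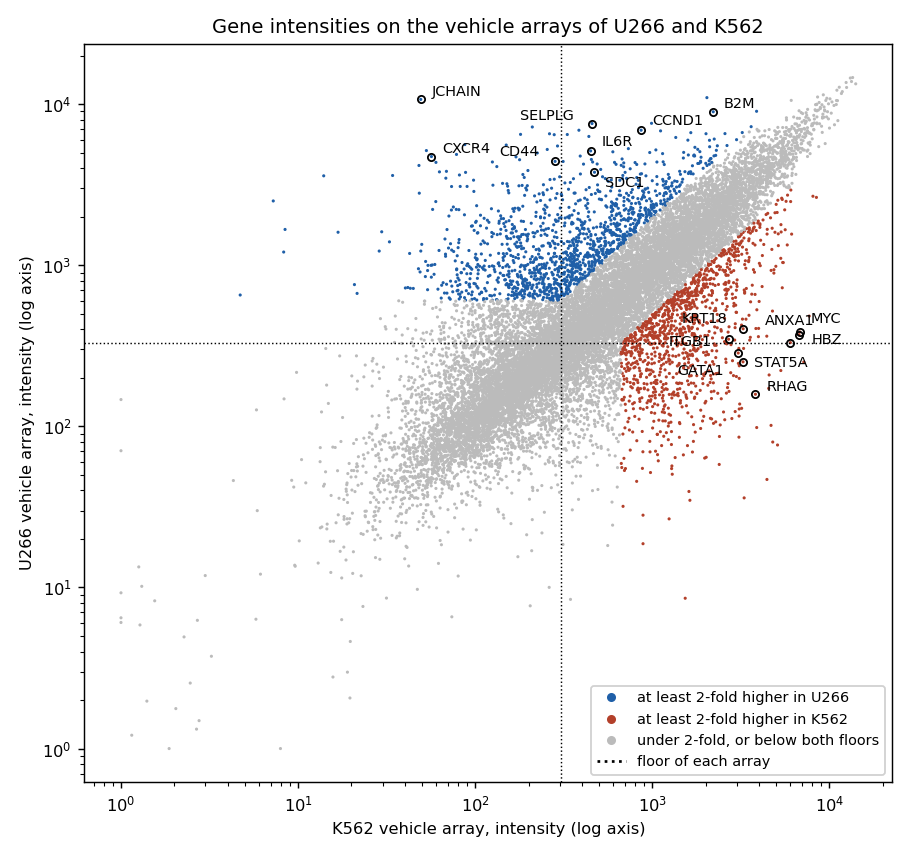
Each point is a gene, placed by its intensity on the K562 vehicle array (horizontal, log axis) and on the U266 vehicle array (vertical, log axis). Blue genes (1378) were at least 2-fold higher in U266, red genes (1142) at least 2-fold higher in K562, dotted lines mark the floors of 331 and 305, and circled genes are named in the text.

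Several transcription factors of the plasma cell were higher in U266. Of 22 genes of plasma cell and mature B transcription factors that were measured, 9 were higher in U266 by at least 2-fold and 0 in K562, at a median log2 difference of 0.52 against 0.0047 over all measured genes. Besides PRDM1 (at least 9.94-fold), POU2AF1, the B cell coactivator of octamer factors, had an intensity of 2758 in U266 and 306 in K562 and was 9.07-fold higher. IRF4, on which myeloma cells depend, had 4370.3 in U266 and 1061 in K562 and was 4.15-fold higher. XBP1, the main transcription factor of the secretory endoplasmic reticulum, had 6648 in U266 and 1649 in K562 and was 4.06-fold higher. IRF4 and XBP1 were thus bright in K562 as well, and POU2AF1 stood close to the K562 floor. IKZF3, the lymphoid Aiolos factor, was 3.76-fold higher in U266, and RUNX3 was 2.91-fold higher. The E protein inhibitor ID3 and the helix-loop-helix repressor BHLHE41 were higher by at least 5.37-fold and 5.31-fold.

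Factors of the mature B cell stage, which plasma cells are known to silence, were low in both lines. PAX5 had an intensity of 276 in U266 and 333 in K562, BCL6 had 334 in U266 and 165 in K562 and SPIB had 337 in U266 and 231 in K562, each near the floor on its brighter array. BACH2, a brake on plasma cell formation, was under both floors with 285 in U266 and 258 in K562. MEF2C and IKZF1 were bright in both lines, with log2 differences of -0.19 and -0.12.

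Erythroid and stem cell regulators were higher in K562, where 18 of 31 measured members passed 2-fold (58.1%, against 9.08% over all genes). In U266 4 did (12.9%, against 11%). The median log2 difference was -1.17. This list, called the erythroid factor list below, is broader than transcription factors. It also holds RNA-binding proteins, the IGF2BP genes and LIN28B among them. GATA1 was at least 9.17-fold higher. GATA2, its partner in progenitors, had an intensity of 249 in U266 and 2003 in K562 and was at least 6.01-fold higher. TAL1, the helix-loop-helix factor that sits with GATA1 on erythroid enhancers, had 160.2 in U266 and 1394 in K562 and was at least 4.19-fold higher. Both were under the floor in U266. MYB, which keeps progenitors dividing, had 938 in U266 and 4858 in K562 and was 5.14-fold higher, so that U266 held a clear signal too. GFI1B, a repressor that erythroid and megakaryocyte cells need, was 4.76-fold higher and the homeobox gene HHEX 4.89-fold. KLF1, the activator of adult globin genes, was named after its values were seen. It had 1179.6 in U266 and 2632 in K562, and its 2.21-fold difference was 1.69-fold between the atovaquone arrays.

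The 3 genes of the IGF2BP family of RNA-binding proteins, which mark fetal cells and many tumours, were all higher in K562. IGF2BP1 had an intensity of 172 in U266 and 4538 in K562, at at least 13.6-fold, and IGF2BP3 had 165 in U266 and 2228 in K562, at at least 6.69-fold. The other 4 genes of that list past 2-fold were higher in U266. FLI1, an ETS factor of megakaryocytes and lymphocytes, had 1665 in U266 and 69.3 in K562 and was at least 5.49-fold higher there, FOXO3 at least 2.36-fold, SOX6 at least 2.31-fold and the cell cycle factor E2F2 2.45-fold. SOX6 silences embryonic globin in erythroid cells.

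HOX and other homeobox genes set the lines apart gene by gene, at a median log2 difference of -0.25. Of 17 measured members 4 (23.5%, against 11% over all genes) were higher in U266 and 5 (29.4%, against 9.08%) in K562. Neighbours within the HOXB cluster went opposite ways. HOXB9 had an intensity of 98.3 in U266 and 3884 in K562, HOXB2 had 204 in U266 and 2982 in K562 and HOXB3 had 2789.6 in U266 and 477 in K562. HOXB9 and HOXB2 were higher in K562 by at least 11.7-fold and at least 8.95-fold, while HOXB3 was 5.89-fold higher in U266. In the HOXD cluster HOXD9 was 4.28-fold higher in K562 and HOXD4 at least 2.51-fold higher in U266. SATB1, the chromatin organiser of lymphocytes, was higher in U266 by at least 4.80-fold, and PBX3, a partner of HOX proteins, by 2.81-fold.

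**Figure D2:**
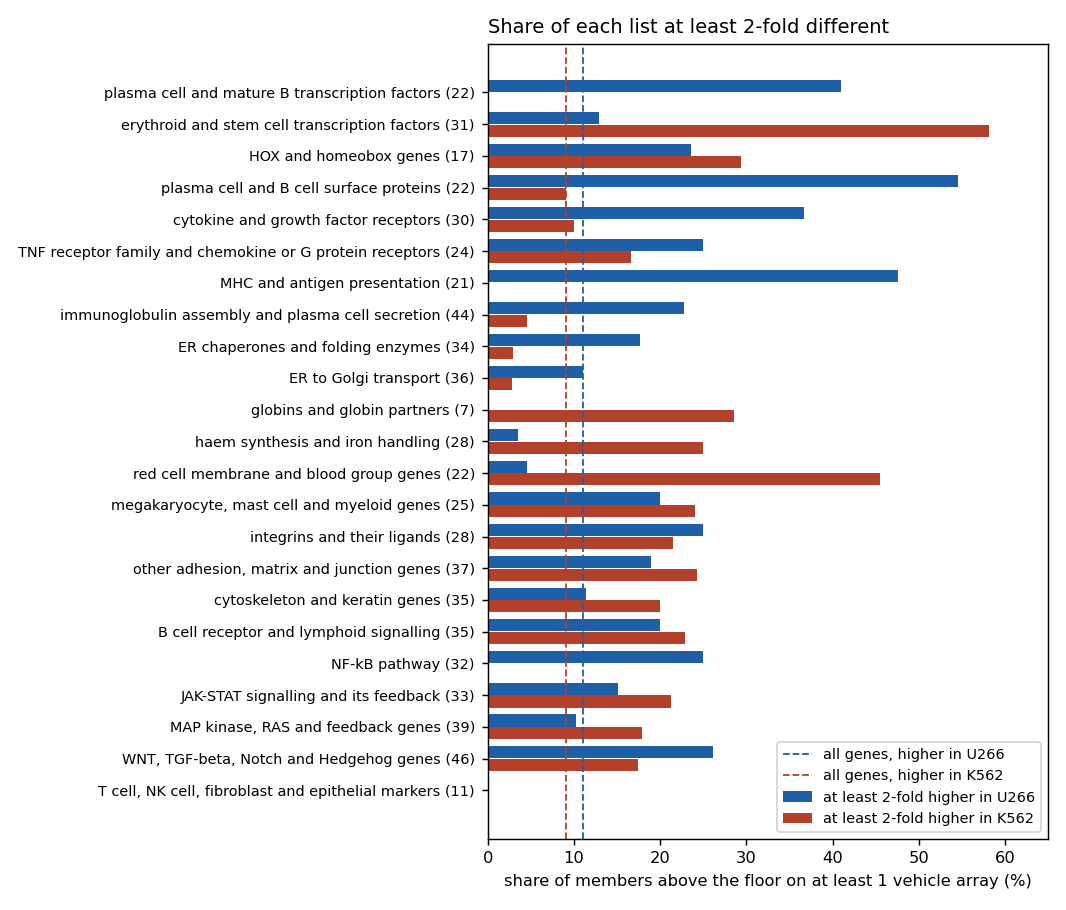
For each gene list (measured members in brackets), bars give the percent of members at least 2-fold higher in U266 (blue) or in K562 (red) between the vehicle arrays. Dashed lines give the same shares over all measured genes, 11% and 9.08%. Plasma cell surface proteins, MHC genes and plasma cell factors stand highest in blue, and erythroid and stem cell regulators and red cell membrane genes in red.

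Surface proteins of plasma and B cells had the highest U266 share of the lists plotted. Of 22 measured members 12 were higher in U266 by at least 2-fold and 2 in K562, at a median log2 difference of 1.55, or 0.57 over the 8 measured on both arrays. CD28, a costimulatory receptor of T cells that myeloma cells also carry, had an intensity of 5607 in U266 and 87.4 in K562 and was at least 18.5-fold higher. TNFRSF17 was at least 13.7-fold higher and CD48, a ligand of the SLAM family, at least 13.5-fold. CD180, a Toll-like receptor of B cells, had 3796 in U266 and 62.8 in K562 and was at least 12.5-fold higher. SDC1 was 8.07-fold higher and the orphan receptor GPRC5D at least 7.24-fold, both of them targets of myeloma therapy. The SLAM receptors SLAMF6 and SLAMF7 were higher by at least 8.32-fold and at least 6.09-fold. These 8 genes were named for the size of their difference toward U266, and SDC1 alone among them was above the K562 floor.

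The 3 receptors for the B cell survival factors BAFF and APRIL each behaved differently. TNFRSF17 (BCMA) was read in U266 alone. TNFRSF13B (TACI) had an intensity of 1186 in U266 and 1188 in K562, a log2 difference of 0.01. TNFRSF13C (the BAFF receptor) had 343 in U266 and 3545 in K562 and was 10.3-fold higher in K562, the leukaemia line; on the atovaquone arrays it stood at 344 and 3546. FCRL3, an Fc receptor-like protein, was at least 2.63-fold higher in K562. CD38, a marker of normal plasma cells, had 396 in U266 and 668 in K562, a log2 difference of -0.74. MS4A1 (CD20), CD79A, CD22, CD27 and FCRL5 were under the floor in both lines, and CD79B had a log2 difference of 0.42.

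Cytokine and growth factor receptors had a median log2 difference of 0.26. Of 30 measured members 11 (36.7%, against 11% over all genes) were higher in U266 and 3 (10.0%, against 9.08%) in K562. Both chains of the IL-6 receptor were among the 11. IL6R had an intensity of 5120.3 in U266 and 448 in K562 and was 11.5-fold higher, and the signalling chain IL6ST (gp130) had 3029 in U266 and 835 in K562 and was 3.65-fold higher. CRLF2, the receptor for the cytokine TSLP, had 4347 in U266 and 60.01 in K562 and was at least 14.3-fold higher. The insulin receptor INSR and its relative IGF1R were higher by 5.86-fold and 4.01-fold. IFNAR2, a chain of the type I interferon receptor, was 4.06-fold higher, and the IL-2 receptor chains IL2RB and IL2RG at least 2.87-fold and 2.81-fold. In K562, IL13RA1 was 3.79-fold, the BMP receptor BMPR2 at least 2.99-fold and FGFR3 2.56-fold higher, with U266 close to its floor for each. EPOR, the erythropoietin receptor, had 380.2 in U266 and 653 in K562, a log2 difference of -0.77, and KIT was under both floors.

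TNF receptor family, chemokine and other G protein-coupled receptors had a median log2 difference of -0.02. Of 24 measured members 6 (25.0%, against 11% over all genes) were higher in U266 and 4 (16.7%, against 9.08%) in K562. CXCR4, which draws plasma cells to the bone marrow, had an intensity of 4726 in U266 and 56.6 in K562 and was at least 15.6-fold higher in U266. CCR2 had 2741 in U266 and 243 in K562 and was at least 9.04-fold higher, and CCR10, the mucosal homing receptor of plasma cells, was 2.69-fold higher. The death receptors FAS and TNFRSF25 were higher by at least 3.03-fold and 4.02-fold, and P2RY8, which confines B cells to germinal centres, at least 3.79-fold. In K562, the lymphotoxin receptor LTBR was at least 4.55-fold higher, the TNF receptor TNFRSF1B at least 3.87-fold and TNFRSF18 3.08-fold.

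Several genes of antigen presentation were higher in U266. Of 21 measured members 10 were higher in U266 by at least 2-fold and 0 in K562, and the median log2 difference was 0.99. B2M, the light chain of MHC class I, had an intensity of 8960.2 in U266 and 2207 in K562 and was 4.09-fold higher. TAP1, which pumps peptides into the endoplasmic reticulum, had 2418 in U266 and 432 in K562, at 5.63-fold, and PSMB9, an immunoproteasome subunit, was 4.43-fold higher. Among class II genes HLA-DPA1 had 5494 in U266 and 291 in K562 and was at least 18.1-fold higher, HLA-DPB1 4.65-fold, and the peptide loaders HLA-DMA and HLA-DMB 8.24-fold and 2.60-fold. HLA-DMA was 4.62-fold higher between the atovaquone arrays. CIITA, the known master activator of class II genes, was just under the U266 floor and under the K562 floor, with 329 in U266 and 214 in K562. The classical class I heavy chain genes share probe sets with each other and have no value here, and HLA genes cross-hybridise, so their single values are uncertain.

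**Figure D3:**
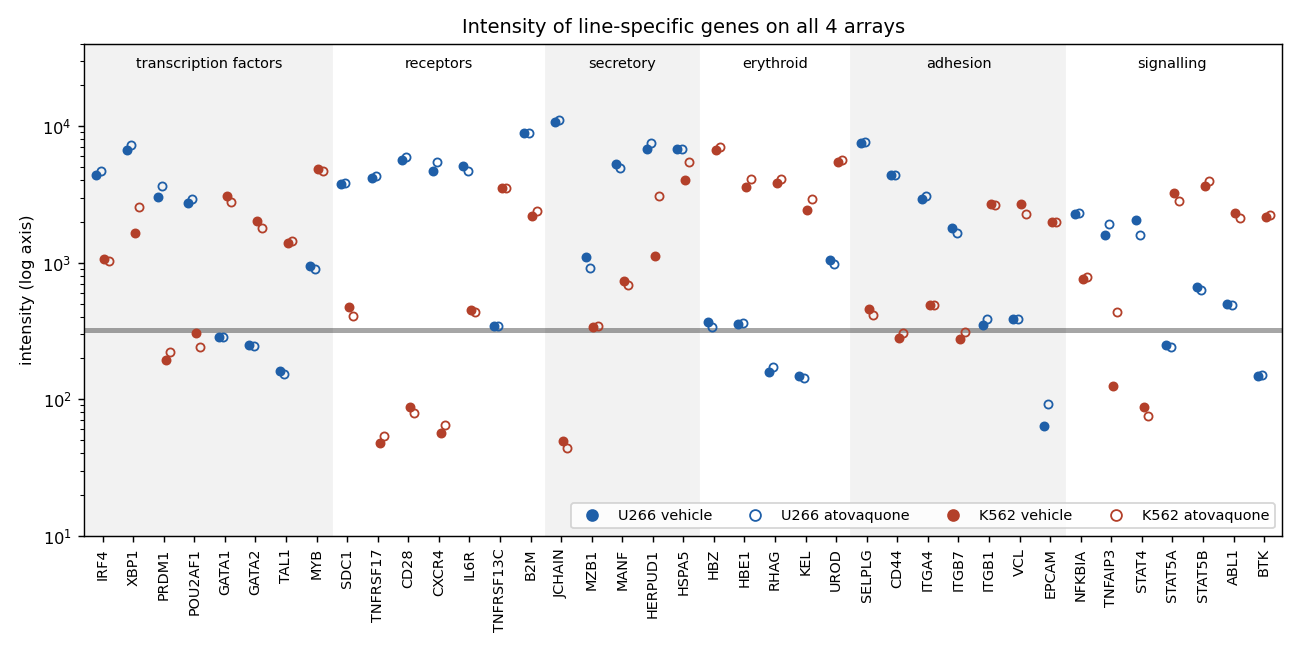
Intensity (log axis) of genes named in the text on each of the 4 arrays, grouped by role, with U266 in blue, K562 in red, vehicle as filled and atovaquone as open points, and the grey band spanning the floors of the arrays. Filled and open points of a line lie close together against the gap between lines for most genes; HERPUD1 and TNFAIP3 in K562 are further apart.

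A smaller share of the secretory genes passed 2-fold. Of 44 measured genes of immunoglobulin assembly and plasma cell secretion, 32 had a log2 difference above 0, at a median of 0.43. By at least 2-fold, 10 (22.7%, against 11% over all genes) were higher in U266 and 2 (4.55%, against 9.08%) in K562. The 10 became 6 with a floor at the 60th percentile. JCHAIN was at least 35.3-fold higher. QPCT, which makes N-terminal pyroglutamate in secreted proteins, had an intensity of 6458 in U266 and 279 in K562 and was at least 21.3-fold higher. TENT5C, an enzyme that lengthens poly(A) tails of secreted protein mRNAs and is often mutated in myeloma, had 3501 in U266 and 817 in K562 and was 4.32-fold higher. MZB1, a chaperone of immunoglobulin heavy chains, had 1093 in U266 and 339 in K562 and was 3.25-fold higher, with K562 close to its floor. TRAM2, SSR4 and SEC11C, which act at the translocon and in signal peptide removal, were 3.36-fold, 3.01-fold and 2.96-fold higher, and the prolyl isomerase FKBP11 2.77-fold. SEC61B, a subunit of the translocon, had a log2 difference of -0.38. SPCS1, a signal peptidase subunit, stood at 0.95.

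Among 34 measured chaperones and folding enzymes of the endoplasmic reticulum, 29 lay above 0, at a median of 0.42. By at least 2-fold, 6 (17.6%, against 11% over all genes) were higher in U266 and 1 (2.94%, against 9.08%) in K562. MANF, a secreted factor released under stress of this compartment, had an intensity of 5290.4 in U266 and 732 in K562 and was 7.28-fold higher. The members of the degradation pathway HERPUD1, SEL1L and SELENOS were 6.17-fold, 5.47-fold and 3.40-fold higher, and the co-chaperone DNAJB9 4.70-fold. HERPUD1 depended on the pair of arrays, at 6818 against 1113 between vehicle arrays and 7573 against 3091 between atovaquone arrays, or 2.49-fold. The abundant chaperones differed less. HSPA5 (BiP) had 6813 in U266 and 3999.6 in K562, a log2 difference of 0.78, and HSP90B1 (GRP94), CALR and CANX stood at 0.28, 0.00 and 0.11. DNAJC1 was 2.58-fold higher in K562.

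Transport from the endoplasmic reticulum to the Golgi had 4 of 36 measured members higher in U266, close to the share over all genes, and 1 in K562, at a median of 0.33. Between the atovaquone arrays 7 were higher in U266. SEC24D, a cargo adaptor of the COPII coat, was 3.87-fold higher in U266 with 1568 against 408. CREB3, a membrane-bound transcription factor, was 3.01-fold, ARFGAP3 2.76-fold and the golgin GOLGB1 2.47-fold higher. The retrieval receptor KDELR3 was at least 2.06-fold higher in K562.

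XBP1 and ATF6 act on secretory genes through the ER stress element, made of CCAAT and, after 9 further bases, CCACG. It was searched on both strands of RefSeq promoter windows (GRCh38.p14, 250 bases before to 50 after each start). It was found in 27 of 35116 windows (0.0769%), and in 8 of 40 windows (20.0%) of the chaperone list. Those 8 windows belonged to 6 of 33 genes. None of the 5 such genes that were measured was 2-fold apart between the lines, against 6 of 27 without the element, all higher in U266. The stretches are shown because they hold the element in HSPA5, PDIA6 and HSP90B1 and in XBP1 itself, with the element in capitals, read on the strand of the gene. They come from chr9:125241351-125241449 (minus strand), chr2:10812813-10812911 (minus), chr12:103930176-103930274 (plus) and chr22:28800570-28800661 (minus), and the element begins at positions -66, -86, -194 and -52 from the start site.
HSPA5: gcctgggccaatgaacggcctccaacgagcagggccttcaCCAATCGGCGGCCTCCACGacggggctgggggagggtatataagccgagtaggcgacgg
PDIA6: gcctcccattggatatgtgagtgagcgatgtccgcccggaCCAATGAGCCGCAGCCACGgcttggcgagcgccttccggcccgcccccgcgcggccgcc
HSP90B1: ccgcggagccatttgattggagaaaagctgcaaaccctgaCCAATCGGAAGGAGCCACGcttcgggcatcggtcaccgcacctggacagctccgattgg
XBP1: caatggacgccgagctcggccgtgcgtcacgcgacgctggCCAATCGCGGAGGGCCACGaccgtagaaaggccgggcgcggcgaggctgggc
The genes of these stretches had log2 differences of 0.78, 0.72, 0.28 and 2.02, so XBP1 was the only gene of the 4 past 2-fold. A match is a description of letters and not of binding.

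Erythroid output genes were higher in K562 in a few places rather than throughout. Of 7 measured globin genes and partners, 2 were at least 2-fold higher in K562 and 0 in U266. They were the embryonic genes HBZ (18.1-fold) and HBE1, which had an intensity of 357 in U266 and 3575 in K562 and was 9.95-fold higher. The adult beta globin gene HBB had 182 in U266 and 333 in K562, near the K562 floor, and AHSP, the chaperone of adult alpha globin, was under both floors. HBD, the minor adult globin, had 1442 in U266 and 739.7 in K562, a log2 difference of 0.97 toward U266. The alpha globin genes HBA1 and HBA2 and the fetal genes HBG1 and HBG2 have no probe set of their own here. Near-identical globin copies can share signal, so single values are uncertain.

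Of 28 measured genes of haem synthesis and iron handling, 7 were at least 2-fold higher in K562 and 1 in U266, at a median log2 difference of -0.33. UROD, the uroporphyrinogen decarboxylase of haem synthesis, had an intensity of 1038 in U266 and 5484 in K562 and was 5.24-fold higher. ALAS2, the erythroid form of the rate-limiting enzyme, had 224 in U266 and 958 in K562 and was at least 2.88-fold higher, while its ubiquitous relative ALAS1 was level at a log2 difference of 0.01. The iron exporter ferroportin, SLC40A1, was at least 5.21-fold higher and the iron sensor TFR2 at least 4.97-fold. STEAP3, which reduces iron in endosomes, was at least 3.46-fold higher and the mitochondrial importer SLC25A37 3.09-fold. TFRC, the transferrin receptor, was bright in both lines with 3721 in U266 and 6164 in K562, a log2 difference of -0.72, and ALAD was 2.11-fold higher in U266 but 1.66-fold between atovaquone arrays.

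Red cell membrane and blood group genes had the larger share, with 10 of 22 measured members higher in K562, 1 in U266 and a median of -0.80. RHAG was at least 11.5-fold higher. KEL, the Kell antigen, had an intensity of 148 in U266 and 2449.9 in K562 and was at least 7.36-fold higher. The glucose transporter SLC2A1 had 724 in U266 and 5414 in K562 and was 7.42-fold higher, with U266 clearly above its floor. ANK1, which anchors the spectrin skeleton, was at least 5.83-fold higher, the Scianna antigen gene ERMAP at least 4.46-fold, RHD at least 3.92-fold and the actin cap TMOD1 3.89-fold. RHD and RHCE are near-identical, so which of them gave the signal is uncertain. EPB41, which links spectrin to the membrane, was bright in both lines with 2842 in U266 and 3515 in K562, a log2 difference of -0.30. SLC4A1 (band 3) and EPB42, which binds it, were under both floors, with 117 in U266 and 198 in K562 for SLC4A1 and 255 in U266 and 220.2 in K562 for EPB42. CD59, a complement inhibitor found on most cells, was 2.38-fold higher in U266.

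GATA1 binds AGATAA, and its motif also allows T as the opening letter and G as the closing letter. Any of these forms, on either strand, was found in 8769 of 35116 promoter windows (25.0%) of 300 bases, in 23 of 49 windows (46.9%) of the red cell membrane list and in 19 of 59 (32.2%) of the erythroid factor list. In the haem list it was found in 5 of 31 windows (16.1%), and in the globin list in 1 of 2. Over the other lists the share ran from 10.9% (cytoskeleton and keratin genes) to 33.3% (T cell, NK cell, fibroblast and epithelial markers). The share of the erythroid factor list lay within that range. Among measured red cell membrane genes with a window, 7 of 12 with a match and 2 of 7 without were at least 2-fold higher in K562. The same counts were 8 of 12 and 7 of 14 for erythroid factors, and 1 of 5 and 4 of 18 for haem genes. A match of 6 letters is frequent and is not evidence of binding. Stretches of 6 genes that were higher in K562 are shown, with a match in capitals (TTATC is the core read on the other strand). They lie at chr6:49636840-49636910 (minus strand), chr7:142962380-142962465 (minus), chr1:42825449-42825534 (plus), chr1:25272393-25272478 (plus), chr1:47232336-47232410 (minus) and chrX:55031059-55031144 (minus) on GRCh38.p14, from RefSeq.
RHAG: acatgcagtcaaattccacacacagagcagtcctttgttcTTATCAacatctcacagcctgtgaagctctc
KEL: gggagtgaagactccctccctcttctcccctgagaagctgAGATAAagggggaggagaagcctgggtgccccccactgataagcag
ERMAP: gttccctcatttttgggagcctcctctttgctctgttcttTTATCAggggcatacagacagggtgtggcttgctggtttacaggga
RHD: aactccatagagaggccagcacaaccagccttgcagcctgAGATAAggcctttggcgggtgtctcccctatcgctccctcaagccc
TAL1: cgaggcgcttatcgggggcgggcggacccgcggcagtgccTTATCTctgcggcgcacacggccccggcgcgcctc
ALAS2: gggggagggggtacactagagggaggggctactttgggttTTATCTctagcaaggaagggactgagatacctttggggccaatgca
In KEL a second match follows further along the same stretch, in lower case. All 6 genes were under the U266 floor.

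Genes of megakaryocytes, mast cells and myeloid cells were split, and 13 were under both floors. Of 25 measured members 5 (20.0%, against 11% over all genes) were higher in U266 and 6 (24.0%, against 9.08%) in K562. ANXA1, a phospholipid-binding protein of myeloid cells, had an intensity of 331 in U266, barely above its floor, and 6017 in K562. It was 18.1-fold higher in K562. LYZ, lysozyme, had 138 in U266 and 3113 in K562 and was at least 9.35-fold higher, and MS4A3, a gene of granulocyte and monocyte progenitors, was at least 5.24-fold higher, or at least 8.21-fold between the atovaquone arrays. SRGN, the granule proteoglycan serglycin, lay the other way with 6883 in U266 and 385 in K562, 18.0-fold higher in U266. PRTN3, a granule protease of neutrophils, was higher in U266 by at least 3.74-fold, and S100A4 by at least 3.12-fold. The megakaryocyte gene ITGA2B had 214 in U266 and 404 in K562, and VWF was under both floors.

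**Figure D4:**
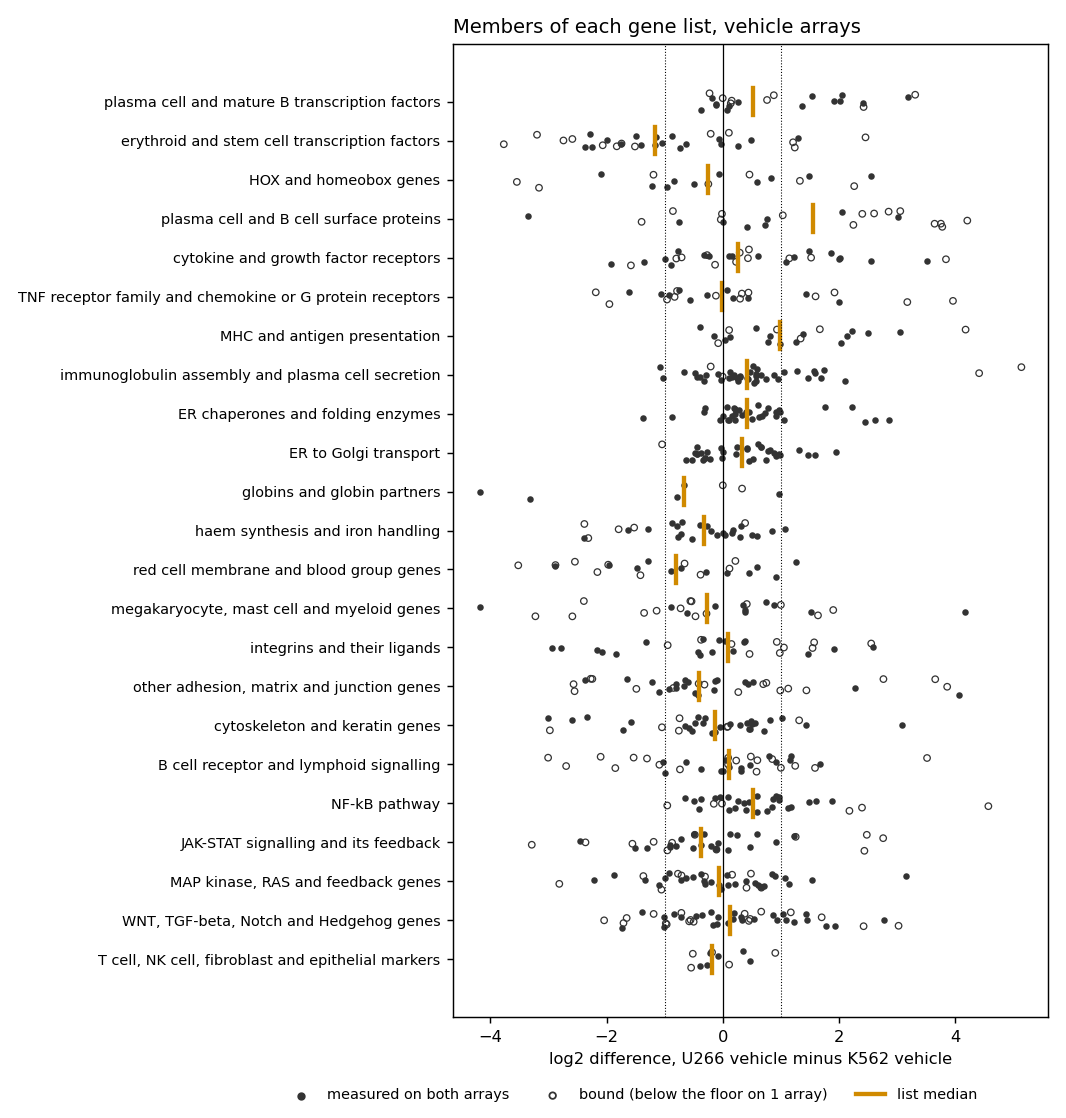
Each point is a measured member of a gene list, placed by its log2 difference between the vehicle arrays (U266 minus K562). Filled points were measured on both arrays, open points are bounds, orange bars are list medians and dotted lines mark 2-fold. Erythroid and stem cell regulators (median -1.17) lie furthest left and plasma cell surface proteins (median 1.55) furthest right.

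Different integrins were bright in each line. Integrins, ligands and linker proteins had a median log2 difference of 0.10. Of 28 measured members 7 (25.0%, against 11% over all genes) were higher in U266 and 6 (21.4%, against 9.08%) in K562. ITGA4 had an intensity of 2930.4 in U266 and 491 in K562 and ITGB7 had 1782 in U266 and 278 in K562; both were higher in U266, at 6.01-fold and at least 5.88-fold, and together they form the gut homing integrin of lymphocytes. ITGB1, the beta chain of the fibronectin and collagen receptors, had 347 in U266 and 2694 in K562 and was 7.70-fold higher in K562. Its fibronectin partner ITGA5 was 3.59-fold higher in K562 and ITGB5 4.23-fold. VCL (vinculin) had 384 in U266 and 2677 in K562 and was 6.92-fold higher in K562, as were the focal adhesion proteins ZYX at 4.51-fold and PARVB at 2.48-fold. In U266 the leukocyte ligands ICAM1 and ICAM3 were higher by 2.78-fold and 3.75-fold, and ITGB8 and the kindlin FERMT2 at least 2.92-fold and at least 2.98-fold. Between the atovaquone arrays ICAM1 was 4.97-fold higher in U266 and ITGA5 at least 5.55-fold higher in K562. ITGAV was level, at a log2 difference of -0.06.

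Other adhesion, matrix and junction genes had a median of -0.41. Of 37 measured members 7 (18.9%, against 11% over all genes) were higher in U266 and 9 (24.3%, against 9.08%) in K562. SELPLG, the ligand of P-selectin that carries myeloma cells to the marrow, had an intensity of 7575 in U266 and 457 in K562 and was 16.7-fold higher in U266. The hyaluronan receptor CD44 had 4410.3 in U266 and 282 in K562 and was at least 14.6-fold higher, and the tetraspanin TSPAN7 at least 12.6-fold. LGALS3 (galectin) was at least 6.80-fold and the desmosome protein PKP2 4.87-fold higher. PECAM1 was at least 2.71-fold higher, while its second probe set was under both floors. EPCAM, an adhesion molecule of epithelia, had 63.5 in U266 and 1975 in K562, at at least 5.93-fold in favour of K562, and the desmosomal cadherins DSG2 and DSC2 were higher in K562 by at least 5.86-fold and at least 4.83-fold, with JUP (plakoglobin) at 2.32-fold. Desmosome genes thus lay on both sides, since PKP2 was higher in U266. TIMP1, an inhibitor of matrix proteases, had 1039.5 in U266 and 5445 in K562 and was 5.20-fold higher in K562, CD99 at least 4.74-fold and the tetraspanin CD81 3.13-fold.

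Cytoskeleton and keratin genes had 4 of 35 measured members higher in U266, close to the share over all genes, and 7 in K562, at a median of -0.13. The paired keratins of simple epithelia were both higher in K562. KRT18 had an intensity of 403 in U266 and 3255 in K562 and KRT8 had 592 in U266 and 3588 in K562, at 8.02-fold and 6.01-fold. MYL4, an embryonic myosin light chain also found in erythroid cells, was at least 7.86-fold higher in K562, TAGLN2 5.02-fold and the nonmuscle myosin MYH10 3.30-fold. CORO1A, the leukocyte coronin, had 5055 in U266 and 598 in K562 and was 8.51-fold higher in U266, and VIM (vimentin) was 2.02-fold higher. Of the list of T cell, NK cell, fibroblast and other epithelial markers, 17 of 28 were under both floors. None of its 11 measured members was 2-fold apart, and KRT5, KRT14, COL1A1 and CD8A had log2 differences of 0.46, -0.08, -0.27 and -0.21. Apart from KRT14, with 890 in U266 and 949 in K562, they were too dim for a 2-fold call against the floor. The absence of calls thus does not show that these genes are level, as with CD3D at 141 in U266 and 476 in K562.

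Genes downstream of the B cell receptor were not higher in U266 as a group. Of 35 measured genes 7 (20.0%, against 11% over all genes) were higher in U266 and 8 (22.9%, against 9.08%) in K562. The median log2 difference was 0.11. BTK, the kinase that links the receptor to calcium release, had an intensity of 149 in U266 and 2157 in K562 and was at least 6.48-fold higher in K562. PRKCB, the protein kinase C that follows it, had 184 in U266 and 2675 in K562 and was at least 8.03-fold higher in K562. The kinase SYK was at least 2.47-fold higher in K562, PIK3CG at least 4.29-fold, PRKCQ at least 3.60-fold and the adaptor LCP2 at least 2.89-fold; U266 was under its floor for all of these. In U266, RASGRP3, an exchange factor that activates RAS, had 3469 in U266 and 68.2 in K562 and was at least 11.4-fold higher, RASGRP1 at least 3.01-fold, the exchange factor VAV1 3.19-fold and the phosphatase INPP5D (SHIP1) 2.25-fold. LYN had a log2 difference of -0.99, just short of 2-fold toward K562.

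Of 32 measured genes of the NF-kB pathway, 24 passed 2-fold neither way, and the median was 0.52. Toward U266 8 passed it (25.0%, against 11% over all genes) and toward K562 0 (against 9.08%). Between the atovaquone arrays the counts were 14 and 1. The 8 include IL2RG, the cytokine receptor chain named above, which also stands in this list. CCL3, a chemokine that activates osteoclasts in myeloma, had an intensity of 7209 in U266 and 210.0 in K562 and was at least 23.8-fold higher. NFKBIA, the inhibitor IkB-alpha and itself a target, had 2291 in U266 and 757 in K562 and was 3.05-fold higher. The deubiquitinases TNFAIP3 (A20) and CYLD, which restrain the pathway, were higher by at least 5.27-fold and at least 4.53-fold. NFKB2, the subunit of the noncanonical arm, had 2146 in U266 and 587 in K562 and was 3.68-fold higher, and BCL3 and TNIP1 were higher by 2.17-fold and 2.25-fold. The subunits RELB, RELA and NFKB1 differed less, at 0.59, 0.37 and 0.26, and TRAF3, an inhibitor of the noncanonical arm, stood at 0.96.

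JAK-STAT genes were split, at a median of -0.38. Of 33 measured members 5 (15.2%, against 11% over all genes) were higher in U266 and 7 (21.2%, against 9.08%) in K562. STAT5A had an intensity of 251 in U266 and 3251 in K562 and STAT5B had 661 in U266 and 3642 in K562, at at least 9.76-fold and 5.47-fold in favour of K562. The cytokine signalling inhibitor SOCS2 had 185 in U266 and 1713 in K562 and was at least 5.14-fold higher in K562, its relative CISH at least 2.94-fold and the kinase PIM1 2.84-fold. STAT4 had 2055 in U266 and 86.9 in K562 and was at least 6.78-fold higher in U266, with the lymphoid kinase JAK3 at at least 5.42-fold and the survival gene BCL2 at at least 5.58-fold. The kinase PIM2, bright in both lines with 9023 in U266 and 3877 in K562, was 2.34-fold higher in U266. IL6 itself had 724 in U266 and 305 in K562 and was at least 2.39-fold higher in U266. STAT3 differed by 0.46, JAK1 by -0.08 and the STAT3 feedback gene SOCS3 by -0.80.

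MAP kinase, RAS and feedback genes had 4 of 39 measured members higher in U266, close to the share over all genes, and 7 in K562, at a median of -0.06. ABL1 had an intensity of 495 in U266 and 2325 in K562 and BCR had 712 in U266 and 2611 in K562, and both partner genes of the fusion were higher in K562, at 4.66-fold and 3.64-fold. CRKL, the main adaptor phosphorylated by BCR-ABL1, was 2.52-fold higher in K562 and the adaptor GRB10 at least 7.03-fold. SPRY4, a feedback inhibitor of RAS signalling, was at least 2.58-fold higher in K562, and the adaptor GAB2 at least 2.08-fold, or 3.34-fold between the atovaquone arrays. In U266 the ERK phosphatase DUSP5 had 2961 in U266 and 336 in K562 and was 8.87-fold higher, and 17.2-fold between the atovaquone arrays. GAB1 was 2.90-fold higher by its brighter probe set, while its second probe set gave 1.07-fold.

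Developmental pathways, in the WNT, TGF-beta, Notch and Hedgehog list, had a median of 0.13. Of 46 measured members 12 (26.1%, against 11% over all genes) were higher in U266 and 8 (17.4%, against 9.08%) in K562. NOTCH2, the Notch receptor of B cells, had an intensity of 2469 in U266 and 223 in K562 and was higher in U266 by at least 8.15-fold, and the Notch ligand JAG2 by 3.43-fold. SKIL, a repressor of SMAD signalling, was 6.83-fold higher in U266, whereas its relative SKI was 3.33-fold higher in K562. ID2 and ID3 were higher in U266 by 3.81-fold and at least 5.37-fold, and ID2 by 2.36-fold between the atovaquone arrays. SMAD1, which carries BMP signals, was at least 3.15-fold higher in K562, the pseudoreceptor BAMBI at least 4.12-fold and the WNT receptors LRP6 and FZD5 at least 3.27-fold and 2.63-fold.

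Genes of lesions reported for the lines included cell cycle regulators. Of 18 measured members 5 (27.8%, against 11% over all genes) were higher in U266 and 7 (38.9%, against 9.08%) in K562. MYC had an intensity of 385 in U266 and 6803 in K562 and was 17.5-fold higher in K562, although it stood at 683 on the U266 atovaquone array, for 9.88-fold between atovaquone arrays. Its relative MYCL had 2891 in U266 and 581 in K562 and was 5.01-fold higher in U266. The D cyclins lay on opposite sides. CCND1 had 6884 in U266 and 865 in K562 and was 8.02-fold higher in U266, and CCND3 had 529 in U266 and 3891 in K562 and was 7.31-fold higher in K562. RB1, the target of the kinases these cyclins drive, was 4.66-fold higher in K562 with 2046 against 436. CDKN2A, which encodes p16 and ARF, had 1510.4 in U266 and 150.1 in K562 and was at least 4.98-fold higher in U266. Its neighbours on the short arm of chromosome 9, MTAP and KLHL9, were higher in U266 by 2.72-fold and at least 5.43-fold, while CDKN2B stood at 0.85 and DMRTA1, from the same region, at 0.18. A deletion of CDKN2A in K562 is known, and copy number was not measured here.

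Among genes of no list, several of the largest differences lay outside these roles. In U266 the highest ratio of a gene measured on both arrays belonged to BOD1L2, with 6473 in U266 and 331 in K562 and 19.7-fold. UCHL1, a deubiquitinase of neurons, had 6543 in U266 and 263 in K562 and was at least 21.6-fold higher. GPX1, the selenium-dependent glutathione peroxidase, had 6487 in U266 and 180.3 in K562 and was at least 21.4-fold higher, while its second probe set gave a bound of at least 5.80-fold. DCC, a netrin receptor, was at least 18.4-fold higher, the sarcoglycan SGCB at least 17.0-fold and NDNF, a secreted neuronal factor, 12.2-fold. HS6ST1, a heparan sulphate sulphotransferase, was 10.5-fold higher by its brighter probe set, and its second probe set gave 1.19-fold the other way.

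On the K562 side, GMPR, which converts GMP to IMP, had an intensity of 222 in U266 and 5315 in K562 and was at least 16.0-fold higher. MGST1, a membrane glutathione transferase, had 76.6 in U266 and 5091 in K562 and was at least 15.3-fold higher, so that GPX1 and MGST1, both enzymes of glutathione defence, lay on opposite sides. The long noncoding RNA UCA1 was at least 14.4-fold higher, TFPI, an inhibitor of coagulation, at least 13.3-fold, and creatine kinase CKB 9.12-fold. The AP-1 repressor JDP2 was 10.9-fold higher with 3971 against 360.2, and the replication histone gene H2AC8 12.1-fold, whereas the histone gene H2BC14 was 9.57-fold higher in U266. Histone genes are close copies of each other, so these values are uncertain.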

How the data were processed

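RNA from 2 human lines was hybridised to 4 Affymetrix gene arrays, 1 per group. Per the labels' protocols, RNA was extracted with Trizol, purified on a column and labelled with biotin. The deposited values are the authors' intensity for each of 33252 probe sets, on a linear scale, with their software, background correction and normalisation not given in the sources used here (any centring between arrays included). The platform annotation listed 21214 probe sets, 19460 of them with 1 symbol, which gave 18417 genes. The brightest probe set stood for a gene with several (769 genes). Median intensities were 339 (vehicle) and 340.3 (atovaquone) in U266, and 314 and 319 in K562.

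Intensities were floored at each array's 40th percentile, put on the log2 scale, subtracted and centred by -0.01 (Python 3.11.15, numpy 2.4.6, pandas 2.3.3, matplotlib 3.10.9). The calculation was tested on simulated data. With 1 array per group there is no test, error or p-value. Members, the 26 lists (990 genes, of which 18 stand in several) and alternatives were chosen with earlier results of these data known. The result of 1 list is not reported here. A list's counts cover members above the floor on at least 1 array, so they leave out its dim members. Named genes were the 15 highest and lowest differences, the 10 largest bounds per direction, up to 8 called members per list and direction, and members under 2-fold given as values. Promoter stretches came from RefSeq (GRCh38.p14). No coordinates of probe sets were used.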

Additional observations from a re-analysis of the deposited data

Results flagged for a closer look

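BAG3 and SNORD14E were at least 2-fold apart between the lines in opposite directions on the vehicle and atovaquone arrays, and they were the 2 genes that were. BAG3, a co-chaperone of HSP70, had a log2 difference (U266 minus K562) of -1.15 between vehicle arrays and 1.28 between atovaquone arrays. Its intensities were 724 and 2772 in U266 with vehicle and atovaquone, and 1622 and 1162 in K562. SNORD14E, a small nucleolar RNA gene, had log2 differences of -1.31 and 2.93, from 366 and 2411 in U266 and 917 and 321 in K562. These differences were not tested, since each value is 1 array.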

How the results depend on the processing

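No paired analysis was possible because the labels give no replicate numbers and each group is 1 array. Counts of genes at least 2-fold apart moved with the floor and the fold. With a floor at the 60th percentile 731 genes were higher in U266 and 627 in K562, bounds included, and 297 and 258 among genes measured on both arrays. With a floor at the 20th percentile the last pair was 1352 and 1209, and with no floor 2288 and 2003 under either rule. A fold of 3 left 634 and 506 genes, or 273 and 217 measured on both. Quantile normalisation, no centring, centring over annotated probe sets (chosen after seeing the data), the mean of a gene's probe sets and the atovaquone arrays kept each count within 1.5 times. Of 26 list medians, 3 moved by more than 0.54: cancer testis antigens to 0.73 with no floor, plasma cell and B cell surface proteins to 0.76 with a floor at the 20th percentile and 0.33 with none, and plasma cell and mature B transcription factors to 1.36 with a 60th percentile floor. No median that passed that size changed sign. Of 52 counts of list members at least 2-fold apart, 18 moved by over 1.5 times with a floor at the 60th percentile, 8 at the 20th, 9 with no floor, 5 between the atovaquone arrays, 1 with quantile normalisation and 0 with another centring or the mean of probe sets. Of 276 genes eligible for naming, 74 were no longer 2-fold apart with a floor at the 60th percentile, 12 between the atovaquone arrays and 1 to 4 under each other setting, and none of those with a value turned its direction. Their log2 differences moved by more than 0.54 in 183 of the 272 genes with a value at the 60th percentile, in 80 at the 20th, in 80 with no floor, in 14 between the atovaquone arrays and in 3 with the mean of probe sets; a bound moves with the floor by construction. Of 23 other probe sets of 18 such genes, 8 only repeated the values of another probe set of the gene, and 12 of the remaining 15 were 2-fold apart the same way. The lack of replicates and signal near the floor limit every value.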

Other observations

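Cancer testis antigens, proteins of germ cells that tumours switch back on, differed between the lines in both directions. Of 14 measured members 8 were higher in U266 by at least 2-fold and 2 in K562. MAGEA4 had an intensity of 2298 in U266 and 75.3 in K562 and was at least 7.58-fold higher in U266, MAGEB2 at least 7.27-fold and MAGEC1 5.94-fold. PAGE2B and PAGE2 were higher in U266 by at least 12.0-fold and at least 4.44-fold. PRAME lay the other way with 251 in U266 and 7164 in K562, at least 21.5-fold higher in K562, and TEX15 was at least 3.69-fold higher in K562. Members of the MAGE and PAGE families are near copies, so the value of a single member is uncertain, and 17 of the 44 listed genes have no probe set of their own.

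A list of interferon-stimulated genes was drawn up after values had been seen. Of 36 measured members 22 were higher in U266 by at least 2-fold and 4 in K562, and 17 more were under both floors. OAS1, a sensor of double-stranded RNA, had an intensity of 6297 in U266 and 438 in K562 and was 14.5-fold higher in U266, with OAS2 at at least 10.2-fold, OAS3 at at least 8.89-fold, MX1 at at least 4.45-fold and the signalling factor IRF9 at at least 7.66-fold. IFITM1, which blocks virus entry, lay the other way with 483 in U266 and 7688 in K562, 15.8-fold higher in K562, and IFITM2 and CMPK2 were higher in K562 by at least 6.46-fold and at least 6.22-fold. IFITM genes are near copies, and their single values are uncertain.

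A list of imprinted genes was also drawn up after values had been seen, so its counts are a description only. Of 19 measured members 3 (15.8%, against 11% over all genes) were higher in U266 and 5 (26.3%, against 9.08%) in K562. PEG10 had an intensity of 4403 in U266 and 314 in K562 and its neighbour SGCE had 3082 in U266 and 82.3 in K562, at 14.1-fold and at least 10.2-fold in favour of U266, and NDN was at least 7.12-fold higher there. MEG3 had 129 in U266 and 3193 in K562 and DLK1, from the same imprinted region, had 325 in U266 and 2237 in K562, at at least 9.59-fold and at least 6.72-fold in favour of K562. The small nucleolar RNA genes of that region followed, with 1 of 2 measured SNORD113 genes and 3 of 3 SNORD114 genes higher in K562. Of the SNORD116 genes, which lie in the region of NDN, 8 of 8 measured were higher in U266, and all 20 SNORD115 genes were under both floors. Copies within each of these families share sequence and are not independent of each other.

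By chromosome, the share of measured genes higher in U266 ran from 5.83% (chromosome 16) to 16.9% (chromosome 15), with X at 16.0% and chromosome 4 at 14.6%, against 11% over all measured genes. The share higher in K562 ran from 4.55% (chromosome 15) to 16.9% (chromosome 13), with chromosome 22 at 15.5% and chromosome 6 at 13.3%, against 9.08% over all. Each gene counted singly in these shares, near copies included, such as the SNORD116 genes on chromosome 15 and MAGE and PAGE genes on X. Copy number was not measured. Of 4668 measured probe sets with no annotation, 321 (6.88%) were higher in U266 by at least 2-fold and 235 (5.03%) in K562. Both shares were below those over all measured genes.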
